A study of Homo sapiens with 6 samples.

Results

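The protein components of the cytosolic ribosome were followed in HT29 cells, an established human colorectal adenocarcinoma line, after treatment with the small molecule YM155. Members were chosen by symbol alone, as every gene named RPL or RPS with a number and at most a closing A, X or L, together with RPLP0, RPLP1, RPLP2 and RPSA. This gave 81 of the 26255 listed genes, 49 of the large subunit and 32 of the small subunit. Of these, 77 passed the filter on low values and were tested, 46 of the large and 31 of the small subunit.

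The study set 3 libraries of cells given YM155 for 24 h beside 3 libraries of cells given DMSO, the solvent, for the same time. YM155 was developed as a suppressor of the expression of survivin, an inhibitor of apoptosis. Every library came from the same unmodified line, and no dose is given in the sources used here. Messenger RNA was taken from column-purified RNA with a stranded kit. The titles of the treated libraries spell the compound YM115, and the group was taken from the treatment label. The labels do not say that the libraries of a group came from separate cultures, so p-values measure the spread between these libraries, which may be technical.

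The ribosome pairs a small subunit, which reads the message, with a large subunit, which forms the peptide bond and holds the exit tunnel for the new chain. Each subunit is a core of ribosomal RNA coated with ribosomal proteins, most of which are present once in every ribosome, so their messages are abundant and kept in similar proportion. Most of these messages begin with a cytidine and a run of pyrimidines, the terminal oligopyrimidine motif, through which mTOR and the RNA-binding protein LARP1 regulate their translation and stability. Fast-growing epithelial tumour cells spend much of their transcription on this family.

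The motif could be read at the RefSeq start sites of assembly GRCh38.p14. All 81 members matched RefSeq by symbol, and 64 had a promoter entry, of which 63 belonged to tested members. Searched on the strand of the gene alone, a C at the start followed directly by at least 4 bases that are each C or T was present in 42 of these 63, or 66.7%, against 459 of 8910 other tested genes, or 5.15%, and 1429 of all 35116 promoter entries, or 4.07%. The sequences below are shown for the members the results turn on, with their paralogs. Each runs over 30 bases, 10 before the start and 20 from it, and capitals mark the C at the start with the pyrimidines that follow it where the motif was present.
RPL6, chr12:112411423-112411452, minus strand: gtatcctcagtgaatcagaaccagaaaaag
RPL28, chr19:55385922-55385951, plus strand: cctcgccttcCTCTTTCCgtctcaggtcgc
RPL13A, chr19:49487598-49487627, plus strand: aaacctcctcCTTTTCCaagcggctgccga
RPLP2, chr11:809957-809986, plus strand: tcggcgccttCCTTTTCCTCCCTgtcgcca
RPL41, chr12:56116623-56116652, plus strand: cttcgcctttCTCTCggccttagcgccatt
RPL22, chr1:6199576-6199605, minus strand: cgctcacctcCCTTTCTaactccgctgccg
RPL22L1, chr3:170870176-170870205, minus strand: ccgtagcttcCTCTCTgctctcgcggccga
RPS9, chr19:54200848-54200877, plus strand: gcttccgcgcCTCTTTCTCagtgaccgggt
RPS27, chr1:153990752-153990781, plus strand: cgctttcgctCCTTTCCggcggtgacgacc
RPS27L, chr15:63157458-63157487, minus strand: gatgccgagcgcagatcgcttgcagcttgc
Both genes of the RPL22 pair carried the motif at the annotated start. In the RPS27 pair it was found for RPS27 and not for RPS27L, and the annotated start of RPL6 held a T. An annotated start can differ from the start used in HT29 cells, which was not measured here.

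Values are FPKM (fragments per kilobase, relative to library size), which are per length and so allow levels of different genes to be compared. Read totals were not part of the tables. Judged by the smallest steps between low values, 1 read was worth 1.52 to 1.78 times as much FPKM in the YM155 libraries as in DMSO replicate 1, and 1.00 to 1.11 times in the DMSO libraries, which leaves scarce messages with a coarser measurement in the YM155 libraries. Of 8 epithelial markers, 7 passed the filter, 5 of them higher and 2 lower with YM155, and CDX1 did not pass it. Of all tested genes, 43.6% were called higher and 41.0% lower. The markers' log2 fold changes of YM155 over DMSO ran from -1.19 to 1.17. EPCAM was at 355 ± 24.7 FPKM with YM155 and 276 ± 23.1 FPKM with DMSO (SD, n = 3 each). None of 8 markers of blood, fibroblast or endothelial cells passed the filter. Bulk libraries cannot tell fewer cells of a kind from less of a message per cell.

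The summed FPKM of the family was similar with and without YM155, while the sum of all other genes, on the same scale, was higher with it. The higher sum was not a rise of most genes, as the median log2 fold change over all tested genes was 0.0245. The members summed to 195678, 182296 and 186485 FPKM in the YM155 libraries and to 184053, 198349.6 and 179701 FPKM in the DMSO libraries. These means, 188153 ± 6845 with YM155 and 187368 ± 9756 with DMSO (SD, n = 3 each), had a ratio of 1.00 and the groups overlapped. All other genes together summed to 496463 ± 3897 FPKM with YM155 and 359854 ± 4648 FPKM with DMSO, a ratio of 1.38 with no overlap. The members therefore held 28.1%, 26.9% and 27.5% of all FPKM in the YM155 libraries and 34.1%, 35.2% and 33.4% in the DMSO libraries, and the groups did not overlap. Among the 100 genes of highest FPKM, 62 to 63 were members in a YM155 library and 67 to 68 in a DMSO library. Whether the steady sum or the lower share describes the cell cannot be told apart without a count of RNA per cell, since how library size entered the FPKM is not stated.

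**Figure D1:**
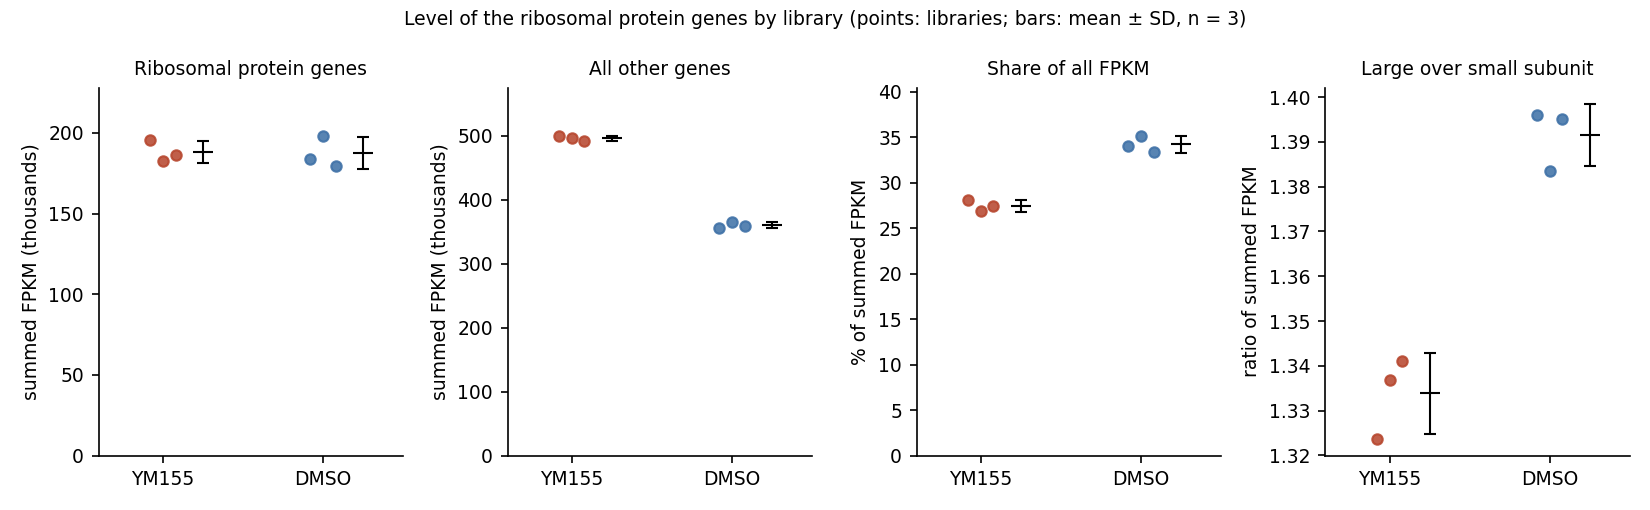
Summed FPKM of the ribosomal protein genes and of all other genes, the members' share of all FPKM in percent, and the ratio of large to small subunit FPKM (axis not from 0), for 3 YM155 libraries on the left and 3 DMSO libraries on the right of each panel, with mean ± SD. The members' sums overlap at 188153 against 187368 FPKM on average, while their share is 27.5% with YM155 against 34.2% with DMSO.

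Gene by gene, most members differed little between the groups. With limma on log2(FPKM + 1) and Benjamini-Hochberg adjustment over all 12035 tested genes, 13 of the 77 members were higher, 13 were lower and 51 did not pass a threshold of 0.05. The background was far larger, since 43.6% of all tested genes were called higher and 41.0% lower, 84.7% in all, against 33.8% of the members. The groups did not overlap for 29 members, 15 higher and 14 lower, which is 37.7% of the members against 85.9% of all tested genes. The log2 fold change of YM155 over DMSO had a median of -0.0038 over the members, with quartiles of -0.10 and 0.07, and a median of 0.0245 over all tested genes, with quartiles of -0.58 and 0.67. It lay within 0.5 of 0 in 76 of 77 members, or 98.7%, against 41.2% of all tested genes, and RPL6 was the exception. For the 51 members that did not pass, it ran between -0.12 and 0.14, with standard errors of 0.04 to 0.09.

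Abundant genes outside the family were spread more widely. Of the members, 76 had a mean of at least 300 FPKM, with a median log2 fold change of -0.0021. The 148 other genes at that level had a median of 0.40, with 98 higher and 28 lower, and 48.0% of them lay within 0.5 of 0, against 98.7% of the members at that level. These 2 sets are described here without a test of the difference between them.

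By subunit, the counts depended on the scale, and the difference between the subunits' counts was not tested. As deposited, of the large subunit genes, 7 were higher, 11 lower and 28 did not pass, with a median log2 fold change of -0.02 and a range of -1.12 to 0.48. Of the small subunit genes, 6 were higher, 2 lower and 23 did not pass, with a median of 0.02 and a range of -0.44 to 0.38. Of all tested genes, 43.6% were higher and 41.0% lower. With ribosomal protein sum scaling the large subunit had 9 higher and 16 lower and the small subunit 8 higher and 8 lower. The shares of all tested genes on that scale were 41.8% higher and 40.3% lower. With a common sum 42 large and 28 small subunit genes were lower, against 53.4% of all tested genes. With the upper quartile they were 42 and 27, against 54.7%. RPL28 was the one member higher on either scale, where 31.8% and 31.3% of all tested genes were higher. The ratio of summed large to summed small subunit FPKM was 1.32, 1.34 and 1.34 in the YM155 libraries and 1.40, 1.38 and 1.40 in the DMSO libraries, so every YM155 library lay below every DMSO library. Without RPL6 it averaged 1.32 ± 0.00943 with YM155 and 1.36 ± 0.00652 with DMSO (SD, n = 3 each), still with no overlap, and without both RPL6 and RPS2 it averaged 1.40 ± 0.0121 with YM155 and 1.43 ± 0.00952 with DMSO. A ratio of this kind is not moved by how a library is scaled as a whole.

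**Figure D2:**
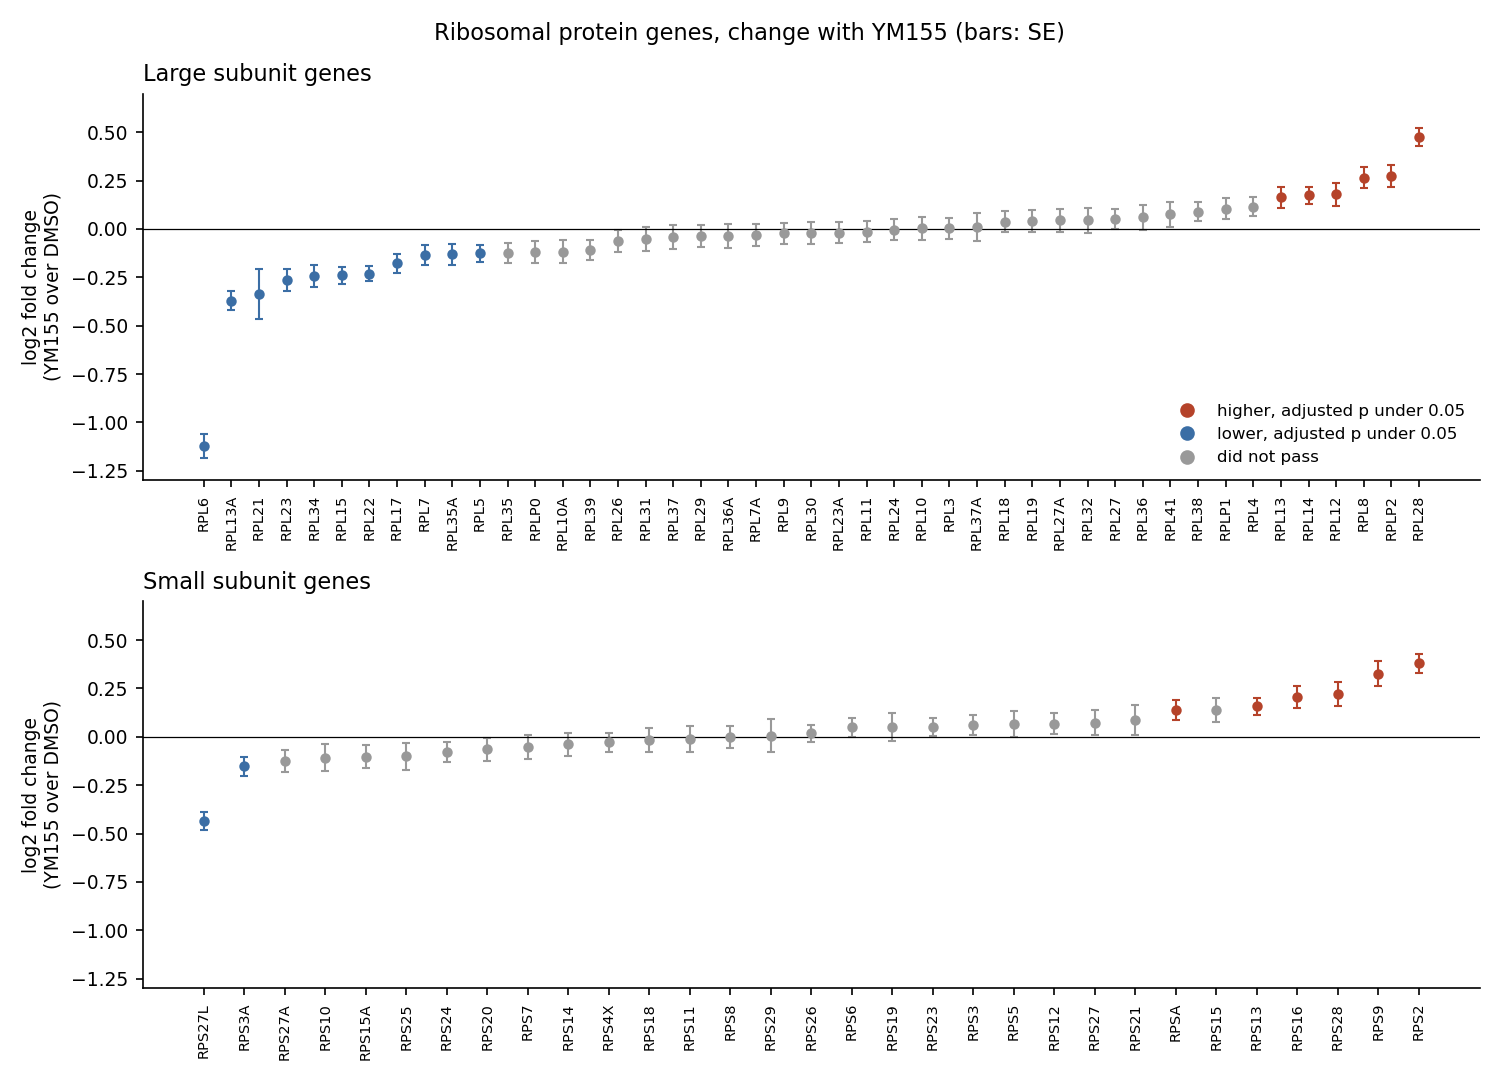
Log2 fold change of YM155 over DMSO with its standard error for tested large subunit genes (top) and tested small subunit genes (bottom), each ordered from lowest to highest and coloured by call. Most genes lie close to 0, RPL6 stands apart at -1.12, and RPL28 and RPS2 lead the rises at 0.48 and 0.38.

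The calls of the small changes depended on the scale and on single libraries. DMSO replicate 2 was the highest of its group for 74 of the 77 members and YM155 replicate 1 for 61, so the members moved together from library to library, and setting every library to the same summed member FPKM gave 17 higher and 24 lower, against 41.8% and 40.3% of all tested genes on that scale. As deposited, leaving out YM155 replicate 2 gave 13 higher and 8 lower, and dropping the filter on low values gave 11 higher and 8 lower. Scaling every library to a common sum, which lowered the median of all tested genes by 0.28, gave 1 member higher and 70 lower, against 31.8% higher and 53.4% lower of all tested genes. Upper-quartile scaling, which lowered it by 0.31, gave 1 higher and 69 lower, against 31.3% and 54.7% of all tested genes, and the member called higher on both scales was RPL28. Relative to the median of all tested genes on the same scale, the members' median stood at -0.03 as deposited and -0.02 with median-of-ratios scaling. It stood at -0.07 with a common sum, -0.07 with the upper quartile and -0.14 with quantile normalization. Quantile normalization gave 3 higher and 63 lower, against 4623 and 5533 of all 12035 tested genes. As deposited, 51.5% of all calls were higher, against 37.4% with a common sum and 36.4% with the upper quartile. Across the 6 scales, 10 members were called lower on every one (RPL6, RPL13A, RPL15, RPL17, RPL21, RPL22, RPL23, RPL34, RPS3A and RPS27L), none was called higher on every one, and 11 were called in both directions. Directions of single genes below are those of the values as deposited.

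**Figure D3:**
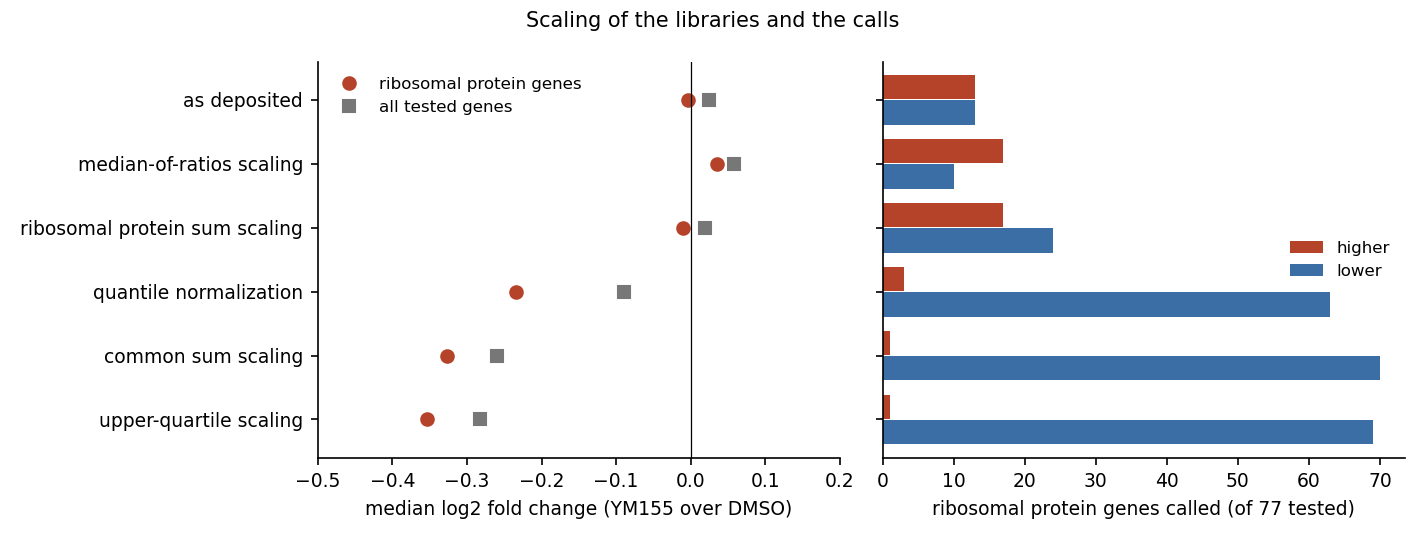
Left, median log2 fold change of YM155 over DMSO of the 77 tested members and of all tested genes under each scaling of the libraries; right, number of members called higher and lower. Under quantile normalization the members' median lies 0.14 below that of all tested genes, against 0.03 below as deposited, and the calls turn from 13 higher and 13 lower to 1 higher and 70 lower with a common sum.

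RPL6, a large subunit protein with no bacterial counterpart, departed furthest. It was at 1146, 998 and 1043 FPKM in the YM155 libraries and at 2282, 2421 and 2234 FPKM in the DMSO libraries. Every YM155 library lay far below every DMSO library, and the mean was 2.18-fold lower, at 1062 ± 76.1 with YM155 against 2312 ± 97.0 with DMSO (SD, n = 3 each). The log2 fold change was -1.12 ± 0.06 (SE; limma, Benjamini-Hochberg adjusted p = 2.0e-07). RPL6 made up 0.564% of the members' summed FPKM with YM155 and 1.23% with DMSO, and its rank by level among the 81 members was 64 with YM155 and 40 with DMSO. Under the 19 alternatives its log2 fold change lay between -1.47 and -1.08 and passed in each.

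RPL28, a large subunit protein that budding yeast lacks, was the largest rise of the family. It was at 1085, 1107 and 1109.7 FPKM with YM155 and at 800.2, 827 and 749 FPKM with DMSO. The groups did not overlap and the mean was 1.39-fold higher with YM155, with a log2 fold change of 0.48 ± 0.05 (SE; limma, adjusted p = 1.1e-05). It passed in 18 of 19 alternatives, and quantile normalization, at -0.0028, was the exception.

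Other large subunit genes rose by less. RPL8, which lies next to the site of peptide bond formation, averaged 4087 ± 197 FPKM with YM155 and 3401 ± 111 FPKM with DMSO (SD, n = 3 each), a log2 fold change of 0.26 (limma, adjusted p = 0.0013). RPL12, a neighbour of the stalk, had a log2 fold change of 0.18 (adjusted p = 0.020) and RPL14 one of 0.17 (adjusted p = 0.0054). RPL13, among the 3 tested members of lowest mean level, was at 455, 415 and 404 FPKM with YM155 and at 378, 391 and 368 FPKM with DMSO (log2 fold change 0.16, adjusted p = 0.017). With a common sum or the upper quartile as the scale, RPL8 did not pass and RPL12, RPL13 and RPL14 were called lower. RPL13 did not pass without DMSO replicate 3, and RPL12 not without YM155 replicate 1, DMSO replicate 1 or DMSO replicate 3.

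The falls among large subunit genes were of like size. RPL23, which binds MDM2 when free of the ribosome, was at 4224, 3877 and 4062 FPKM with YM155 and at 4808, 5147 and 4677 FPKM with DMSO. The groups did not overlap, and the log2 fold change was -0.27 ± 0.06 (SE; limma, adjusted p = 0.0018). RPL15 was at 486 ± 12.4 FPKM with YM155 and 574 ± 20.6 FPKM with DMSO (SD, n = 3 each; log2 fold change -0.24, adjusted p = 6.7e-04), and RPL34 at 632 ± 32.1 with YM155 and 747 ± 44.1 with DMSO (-0.24, adjusted p = 0.0032). RPL17, which lines the exit tunnel, had a log2 fold change of -0.18 (adjusted p = 0.0086). RPL7 and RPL35A, each at -0.13 with adjusted p-values of 0.036 and 0.042, did not pass when any single library other than DMSO replicate 3 was left out, nor with median-of-ratios scaling.

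The stalk of the large subunit, which recruits elongation factors, is built on RPLP0 with RPLP1 and RPLP2, and 1 of its 3 genes passed. RPLP2 was at 3698, 3335 and 3272 FPKM with YM155 and at 2788, 2882 and 2846 FPKM with DMSO, with no overlap. It was 1.21-fold higher with YM155, with a log2 fold change of 0.27 ± 0.06 (SE; limma, adjusted p = 0.0015), and its fitted value was -0.08 with upper-quartile and -0.05 with common sum scaling. RPLP1 was at 5673, 5393 and 5400.1 FPKM with YM155 and at 5171, 5331 and 4827 FPKM with DMSO, also with no overlap, but its log2 fold change of 0.10 did not pass (adjusted p = 0.11). RPLP0 was at 2944, 2798 and 2901 FPKM with YM155 and at 3119.8, 3354 and 2925 FPKM with DMSO, where the groups overlapped (log2 fold change -0.12, adjusted p = 0.086). The differences between these 3 genes were not tested.

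RPL5 and RPL11 join 5S ribosomal RNA to the large subunit and, when left over, bind MDM2. RPL5 was at 1766, 1691 and 1789 FPKM with YM155 and at 1869.9, 1958 and 1898 FPKM with DMSO, with no overlap and a log2 fold change of -0.13 ± 0.04 (SE; limma, adjusted p = 0.025). That call did not pass without YM155 replicate 2, without DMSO replicate 2, without the filter on low values or with median-of-ratios scaling. RPL11 was at 3353, 3137 and 3114 FPKM with YM155 and at 3136, 3432 and 3130.3 FPKM with DMSO, with overlap (log2 fold change -0.01 ± 0.06, adjusted p = 0.83).

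RPL41, the shortest ribosomal protein, was the most abundant member in both groups. It was at 7835, 7792 and 7849.9 FPKM with YM155 and at 7371, 8072 and 6895 FPKM with DMSO. The YM155 libraries lay inside the range of the DMSO libraries, and the log2 fold change of 0.07 did not pass (adjusted p = 0.30).

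In the small subunit the largest rise was that of RPS2, which sits at the entry of the message channel. It was at 4615, 4397 and 4601 FPKM with YM155 and at 3345, 3557 and 3563 FPKM with DMSO. All YM155 libraries were above all DMSO libraries, the mean was 1.30-fold higher, and the log2 fold change was 0.38 ± 0.05 (SE; limma, adjusted p = 7.5e-05). RPS9, its neighbour at the channel entry, was at 2178, 1953 and 1851 FPKM with YM155 and at 1549, 1675 and 1536 FPKM with DMSO, 1.26-fold higher with no overlap (0.33 ± 0.07, adjusted p = 0.0014). RPS3, the other protein of that entry, was at 2555, 2377 and 2439 FPKM with YM155 and at 2328, 2474 and 2259.6 FPKM with DMSO, with overlap and no call (0.06, adjusted p = 0.29). Neither RPS2 nor RPS9 passed with upper-quartile or common sum scaling, and RPS2 did not with quantile normalization.

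The remaining small subunit calls were small. RPS28 had a log2 fold change of 0.22 (limma, adjusted p = 0.0086), RPS16 of 0.20 (adjusted p = 0.0082) and RPS13 of 0.16 (adjusted p = 0.0097), and RPS3A fell with one of -0.15 (adjusted p = 0.016). RPSA, which is also known as the laminin receptor precursor, was at 982, 939.9 and 965 FPKM with YM155 and at 882, 918 and 824 FPKM with DMSO, with no overlap (0.14 ± 0.05, adjusted p = 0.027). RPSA did not pass without YM155 replicate 1 or 3 or DMSO replicate 1 or 3, and RPS3A not without YM155 replicate 2. Without the filter on low values neither RPSA nor RPS3A passed. With a common sum as the scale, RPS13, RPS16 and RPSA were called lower, and RPS28 did not pass.

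RPS6, the substrate of the S6 kinases, was at 3703, 3432 and 3581 FPKM with YM155 and at 3375, 3521 and 3457 FPKM with DMSO, with overlap (log2 fold change 0.05 ± 0.05, limma adjusted p = 0.37). RPS27A, made as a fusion to ubiquitin, was at 1824, 1635 and 1680.1 FPKM with YM155 and at 1789, 1959.7 and 1851 FPKM with DMSO (-0.12, adjusted p = 0.069). RPS4X, the X-linked form of RPS4, was at 2501, 2341 and 2499 FPKM with YM155 and at 2489, 2596 and 2403 FPKM with DMSO (-0.03, adjusted p = 0.61). In each of the 3 the groups overlapped and no change was detectable beyond the spread of the libraries.

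**Figure D4:**
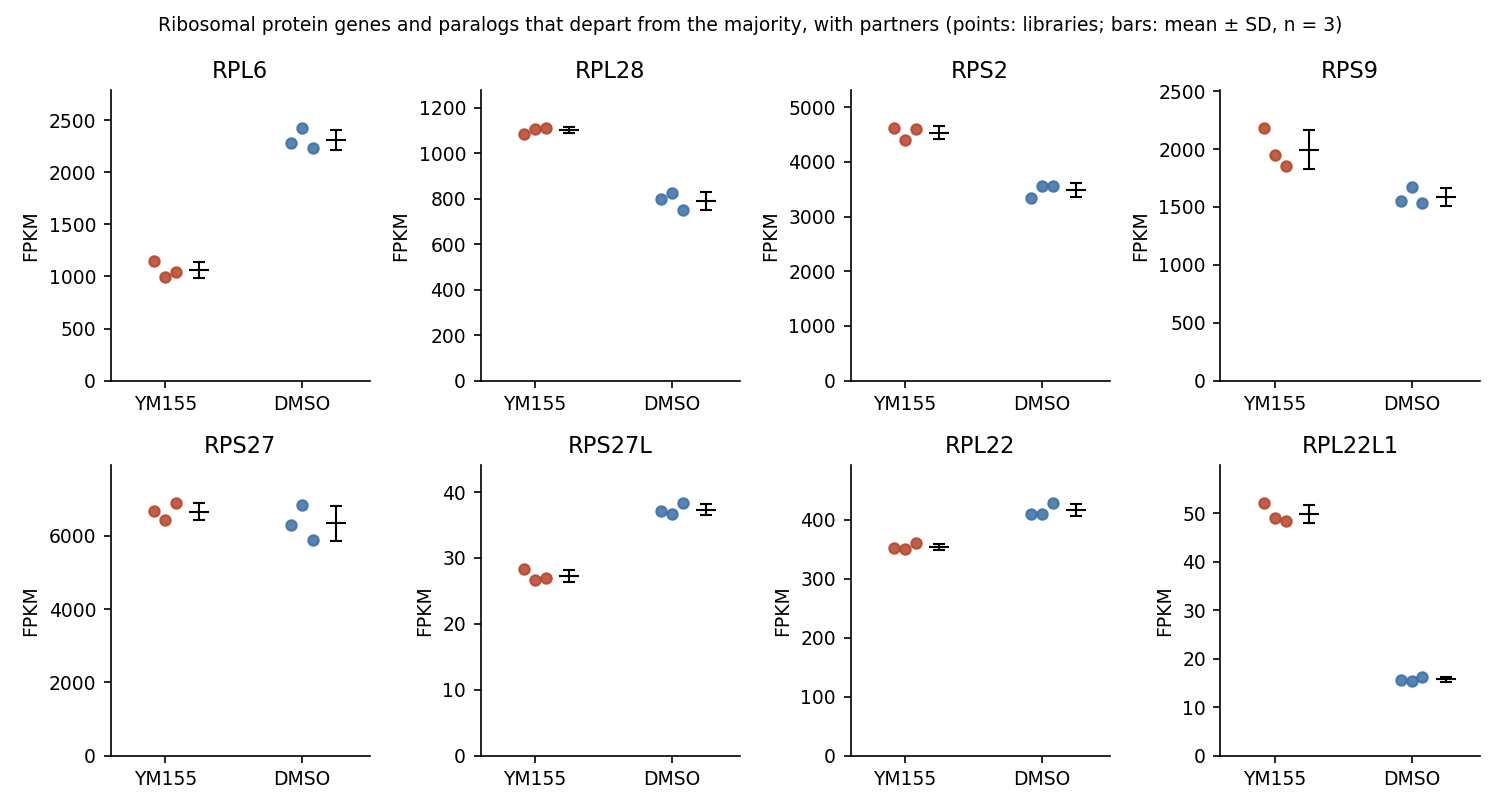
FPKM by library of RPL6, RPL28, RPS2 and RPS9 (top) and of the pairs RPS27 with RPS27L and RPL22 with RPL22L1 (bottom), YM155 on the left and DMSO on the right of each panel, with mean ± SD (n = 3 each) and axes from 0. RPL6 is 2.18-fold lower with YM155, and RPL22L1 is 3.16-fold higher while RPL22 is slightly lower.

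Paralogs are alternative copies of a ribosomal protein gene, and several lay further from 0 than most main copies. Some of them have symbols outside the naming pattern. The furthest from 0 was RPL22L1, the paralog of RPL22, a protein that mice can lack and that is known in mouse cells to restrain the message of its paralog. RPL22L1 was at 52.1, 49.1 and 48.5 FPKM with YM155 and at 15.6, 15.4 and 16.3 FPKM with DMSO. Its mean was 3.16-fold higher with YM155, with no overlap and a log2 fold change of 1.60 ± 0.05 (SE; limma, adjusted p = 7.1e-09), and it passed in all 19 alternatives, between 1.26 and 1.65. RPL22, the least abundant tested member after RPS27L, was at 352, 349.9 and 360.2 FPKM with YM155 and at 410.2, 410.4 and 428 FPKM with DMSO, with no overlap and a log2 fold change of -0.23 ± 0.04 (adjusted p = 3.9e-04). RPL22L1 thus stood at 14.1% ± 0.676 of the level of RPL22 with YM155 and at 3.79% ± 0.0412 with DMSO (SD, n = 3 each), a ratio 3.72-fold higher with YM155.

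RPS27L is a known target of p53 and the paralog of RPS27. Among called small subunit genes it alone lay at least 0.4 from the members' median, with RPS2 next at 0.38. RPS27L was at 28.4, 26.7 and 26.9 FPKM with YM155 and at 37.1, 36.6 and 38.3 FPKM with DMSO. The groups did not overlap and the mean was 1.37-fold lower with YM155, with a log2 fold change of -0.44 ± 0.05 (SE; limma, adjusted p = 1.7e-05), and it passed in all 19 alternatives. RPS27, the second most abundant member, was at 6669.8, 6418 and 6882 FPKM with YM155 and at 6286, 6829 and 5890.0 FPKM with DMSO, with overlap (0.07, adjusted p = 0.31). RPS27L stood at 0.411% ± 0.0179 of RPS27 with YM155 and 0.592% ± 0.0571 with DMSO.

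Among the further pairs, RPL26L1 was 1.71-fold lower, at 25.6, 21.6 and 18.7 FPKM with YM155 and at 35.9, 37.0 and 39.5 FPKM with DMSO (log2 fold change -0.75 ± 0.10, limma adjusted p = 7.3e-05). Its partner RPL26 did not pass (-0.06, adjusted p = 0.33), and the pair's ratio was 1.03% ± 0.123 with YM155 and 1.70% ± 0.136 with DMSO (SD, n = 3 each). RPL36AL was at 189, 198 and 205 FPKM with YM155 and at 215, 236 and 215 FPKM with DMSO (-0.17, adjusted p = 0.013), beside RPL36A, which did not pass (-0.04, adjusted p = 0.59). RPL7L1 was at 40.4 ± 1.94 FPKM with YM155 and 39.4 ± 1.42 FPKM with DMSO and did not pass (0.03, adjusted p = 0.54). In all 5 usable pairs the 3 ratios with YM155 lay on one side of the 3 with DMSO, for an exact two-sided permutation p of 0.1 each, the smallest that 3 against 3 libraries allow, and of 0.1 after adjustment over the 5. Such a separation was common, since the groups did not overlap for 85.9% of all tested genes. FAU, the fusion gene of RPS30, was at 883, 822 and 778 FPKM with YM155 and at 777, 863 and 737 FPKM with DMSO (0.06, adjusted p = 0.40).

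Paralogs with restricted expression fell below the filter. RPL10L was listed at 0 in every YM155 library and at 0, 0.0602 and 0 FPKM in the DMSO libraries. RPL3L was listed at 0 in every YM155 library and at 0.0276, 0.0275 and 0 FPKM with DMSO. RPL39L was listed at 0 in all 6 libraries. In a table without counts a listed 0 can be a failed estimate and not an absent message.

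For RPL13A and RPL21 the deposited table also lists a processed pseudogene at a higher level than the gene. RPL13A, which outside the ribosome silences inflammatory messages, was at 1584, 1496 and 1573 FPKM with YM155 and at 2015, 2083 and 1924 FPKM with DMSO, 1.29-fold lower with no overlap (log2 fold change -0.37 ± 0.05, limma adjusted p = 7.4e-05). RPL13AP5 was at 5962, 5447 and 5437 FPKM with YM155 and at 5459, 5923 and 5373 FPKM with DMSO (0.0077, adjusted p = 0.91). Added together, the 2 entries came to 7166 ± 331 FPKM with YM155 and 7592 ± 369 FPKM with DMSO (SD, n = 3 each), and the call did not pass (-0.08 ± 0.06, adjusted p = 0.21). RPL13A held 21.7% of that sum with YM155 and 26.4% with DMSO. RPL21 was at 485, 407 and 367 FPKM with YM155 and at 521, 622 and 449.8 FPKM with DMSO, with overlapping groups (-0.34 ± 0.13, adjusted p = 0.033). That call was lost without YM155 replicate 2 or 3 or DMSO replicate 1 or 2, and also when RPL21P28 was added (-0.11 ± 0.06, adjusted p = 0.10). Of 31 listed ribosomal protein pseudogenes of this kind, these 2 reached 100 FPKM, and the highest of the others averaged 13.9 FPKM. The changes of RPL13A and RPL21 are therefore uncertain, as reads can be shared between near-identical copies.

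**Figure D5:**
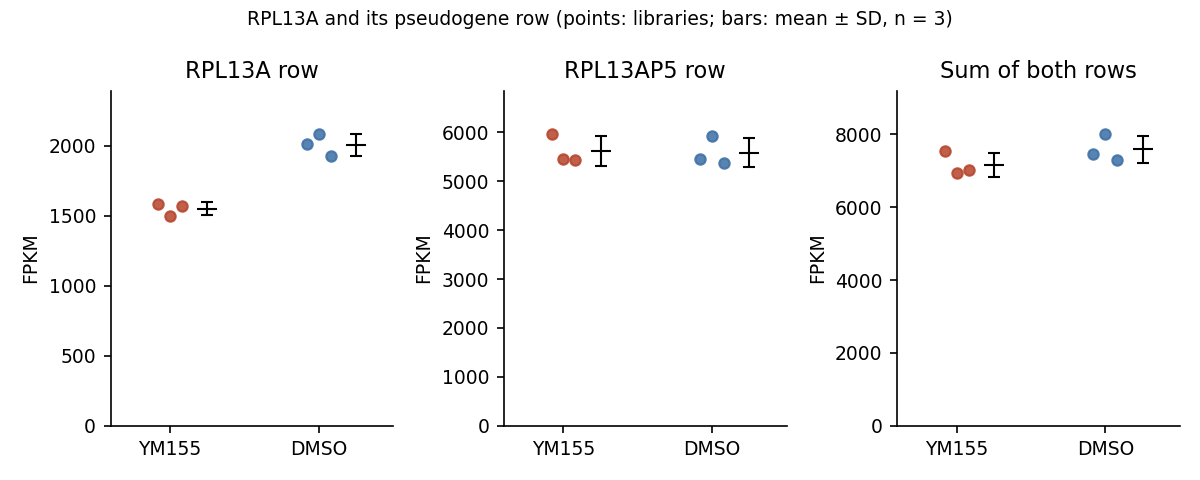
FPKM by library of RPL13A, of its pseudogene RPL13AP5 and of both added together, YM155 on the left and DMSO on the right, with mean ± SD (n = 3 each) and axes from 0. RPL13A is 1.29-fold lower with YM155, while the sums overlap at 7166 against 7592 FPKM on average.

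Grouped by other properties, the members' medians stayed close to 0, and each group had a smaller share called than the 84.7% of all tested genes. Of 42 members with the pyrimidine start, 8 were higher and 6 lower, with a median log2 fold change of 0.0229. Of 21 with another annotated start, 2 were higher and 4 lower, with a median of 0.0028, and RPL6 at -1.12 was among them. Of 29 members that carry small nucleolar RNAs, guides of ribosomal RNA modification, within their span, 8 were higher and 6 lower (median 0.0028). Of the 48 that carry none, 5 were higher and 7 lower (median -0.01). Among 52 listed small nucleolar RNAs within 26 members, 13 passed the filter, of which 1 was higher, 2 were lower and 10 did not pass. A kit for messenger RNA captures them poorly, and most were listed at 0. Of 17 tested members mutated in Diamond-Blackfan anaemia, an inherited failure of red cell production, RPS28 was higher while RPL5, RPL15 and RPL35A were lower. Their median was -0.05 and all 17 lay within 0.25 of 0.

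Lists of genes that act on the family are read against the background of 43.6% higher and 41.0% lower. A list of 21 translation factors and partners was drawn up as having messages with the pyrimidine start, but their starts were not examined one by one. Of the 21, 13 were higher and 3 lower as deposited, with a median log2 fold change of 0.20. With a common sum as the scale, 5 were higher and 12 lower. The import factor IPO7 was 3.12-fold higher (1.62 ± 0.06, SE; limma, adjusted p = 1.8e-08), the elongation factor EEF2 1.84-fold higher, and the elongation factor EEF1G did not pass (-0.02, adjusted p = 0.77). Of 12 regulators of these messages and of S6, 8 were higher and 3 lower (median 0.46), and 6 higher and 4 lower with a common sum. LARP1 was at 93.8 ± 0.920 FPKM with YM155 and 42.3 ± 0.889 FPKM with DMSO (log2 fold change 1.13 ± 0.04, adjusted p = 1.4e-08), and TIA1, a translational repressor, was 2.64-fold lower. These genes differed in FPKM while the members' sum overlapped, and no relation between them was tested.

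Of 21 chaperones and assembly partners, 14 were higher and 4 lower (median log2 fold change 0.37), led by BYSL, which acts in small subunit assembly, at 2.43-fold, and NMD3, the export adaptor of the large subunit, at 2.31-fold. Of 15 genes of ribosome quality control, 11 were higher (median 0.65). ZNF598, the ubiquitin ligase that marks collided ribosomes, was at 78.1 ± 4.80 FPKM with YM155 and 17.9 ± 0.185 FPKM with DMSO (SD, n = 3 each), 4.36-fold higher (2.06 ± 0.05, limma adjusted p = 2.4e-09). GNB2L1, also called RACK1 and a fixed part of the small subunit, was at 2168 ± 67.7 FPKM with YM155 and 2165 ± 143 FPKM with DMSO and did not pass (0.0036, adjusted p = 0.96). With a common sum as the scale, the 21 assembly genes gave 10 higher and 9 lower, and the 15 quality control genes 8 higher and 5 lower.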

How the data were processed

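The authors deposited 1 table of FPKM values per library. The submitters' processing notes name Cufflinks 2.2.1 with Cuffdiff, SAMtools 1.2, TopHat2 2.1.1 and Bowtie2 2.3.5.1, and the genome build hg19. Not given in the sources used here are their settings, the annotation, the scaling of library size and the use of strand, so overlapping genes and near-identical copies are uncertain. FPKM values hold no counts, and the worth of 1 read was taken from the smallest steps between low values.

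Genes with at least 1 FPKM in at least 3 of 6 libraries were tested as log2(FPKM + 1) with limma 3.58.1 in R 4.3.3 (lmFit, eBayes with trend, two-sided, no replicate block), adjusted by Benjamini-Hochberg over all tested genes, with a threshold of 0.05. Folds are ratios of mean FPKM. Log2 fold changes with a pseudocount understate the change of scarce genes. The fit was tested on simulated data. Paralog ratios had exact permutation tests. Start sites and names came from RefSeq (GRCh38.p14), and no coordinates were converted.

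Members and lists were chosen with earlier results of these data known. Genes chosen by rule were those at least 0.4 from the members' median and past the threshold, the 3 most and 3 least abundant, paralogs, the stalk and 5S genes and a few well-known members, the extremes of each subunit, and up to 4 of each list with the most abundant that did not pass. Not all chosen list genes are named here, and many named ones are given by folds or means without values in every library. Other called members, RPS9 and RPL8 among them, were chosen after their values were seen. Alternatives were other pseudocounts (0.1 and 0.5), no filter on low values, a mean of at least 5 FPKM, 5 scalings, eBayes without trend or robust, a replicate block, leaving out each library and a threshold of 0.01. A few genes are counted in the totals but not reported here. Merging RPL13A and RPL21 with their pseudogenes was added after seeing the data.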

Additional observations from a re-analysis of the deposited data

How the results depend on the processing

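Of 61 genes followed through the alternatives, 24 kept direction and side of the threshold in every one run. Among the 24 were the members RPL6, RPL15, RPL17, RPL22, RPL23, RPL34 and RPS27L and the paralogs RPL22L1 and RPL26L1. The rest were genes of the lists that act on the family, several of them not named here. The members called higher numbered 13 as deposited and 10 to 17 when single libraries were left out, and those called lower 13 and 8 to 16. Of all 12035 tested genes, 5084 to 5252 were higher and 4768 to 4952 lower when single libraries were left out. With upper-quartile, quantile and common sum scaling, 1, 3 and 1 were higher and 69, 63 and 70 lower. With ribosomal protein sum scaling 24 were lower, and with median-of-ratios scaling 17 were higher and 10 lower. The counts or shares of all tested genes on these scales are given above, except for median-of-ratios scaling. On that scale, too, more of all tested genes were called higher than lower. Without the filter 8 were lower, against 6261 of 19085 genes. At a threshold of 0.01, 8 were also lower, against 4529 of 12035. The large subunit median was -0.37 with upper-quartile, -0.26 with quantile and -0.34 with common sum scaling, and the small subunit median -0.33, -0.20 and -0.31. When single libraries were left out, they ran from -0.05 to 0.02 and from -0.01 to 0.06.

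Whether the replicate numbers pair the libraries is not given in the sources used here. Libraries of the same number had deviations correlated at -0.07, -0.15 and -0.12, and those of different numbers at -0.0032 to 0.12. With 3 libraries a group these values cannot settle it. With a replicate block 10 members were higher and 9 lower, against 5147 and 4861 of all 12035 tested genes. Of the 26 calls, 19 remained, and RPL5, RPL7, RPL12, RPL35A, RPS3A, RPS13 and RPSA did not pass. Without the filter on low values 19 also remained, and RPL5, RPL7, RPL12, RPL21, RPL35A, RPS3A and RPSA did not pass.

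Log2 fold changes that passed as deposited or in the alternative changed sign under upper-quartile, quantile and common sum scaling alone, which lowered the median of all tested genes by 0.31, 0.11 and 0.28. Under upper-quartile, quantile and common sum scaling in that order, RPL41 was at -0.27, -0.51 and -0.25, RPS27 at -0.28, -0.35 and -0.25, RPL13 at -0.19, -0.30 and -0.16, RPL14 at -0.18, -0.29 and -0.15, RPS6 at -0.30, -0.15 and -0.27, RPSA at -0.21, -0.33 and -0.18, RPS3 at -0.29, -0.0937 and -0.26, RPL7L1 at -0.31, -0.37 and -0.28, FAU at -0.29, -0.40 and -0.26, LARP7 at -0.34, -0.34 and -0.31, BTF3 at -0.34, -0.46 and -0.31, and GNB2L1 at -0.35, -0.16 and -0.32. Under upper-quartile and common sum scaling in that order, RPLP1 was at -0.25 and -0.22, RPLP2 at -0.0765 and -0.0504, RPL8 at -0.0849 and -0.0588, RPL12 at -0.17 and -0.14, RPS13 at -0.19 and -0.17, RPS16 at -0.14 and -0.12, and RPS28 at -0.13 and -0.10. RPS9 was at -0.0219 under upper-quartile scaling, and RPL28 at -0.0028 under quantile normalization. In 9 genes, RPL11, RPS4X, RPL36A, RPLP1, RPL7L1, EEF1G, LARP7, BTF3 and GNB2L1, values that passed in neither also changed sign under these or other alternatives, to between -0.07 and 0.03. The cause of these reversals was not tested beyond the shift of the median.

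With 3 libraries a group, the members' log2 fold changes had standard errors of 0.04 to 0.13. As deposited, members that did not pass lay between -0.12 and 0.14, and the calls nearest 0 were at -0.13 and 0.14. Smaller changes of members were not detectable. No read totals were given, and no interval for counting error could be had.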
